A study of Mus musculus with 15 samples.

Results

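The 10 genes described here are Gsta3, Gsta4, Gstm1, Gstm2, Gstt1, Hagh, Glo1, Nqo1, Hmox1 and Gclc, which encode glutathione transferases and other detoxifying enzymes. They were taken by symbol from a table of 16199 genes measured in mouse heart during induction of the RNA-binding protein CELF2. All 10 were found, and each of them averaged 1 RPKM or more across the 15 hearts. RPKM is the number of reads per kilobase of coding sequence, scaled to the mapped reads of each library, so levels can be compared between genes as well as between hearts. The genes were chosen with their values in all 5 groups known. Their differences are therefore given as a description, with standard errors and without a test.

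Poly(A)+ RNA was sequenced from ventricles of 15 FVB mice between 14 and 16 weeks of age, each library coming from a separate animal. The 12 induced mice carried MHCrtTA and TRECUGBP2, a tetracycline-responsive human CELF2 (CUGBP2) transgene, and had been fed 2 g/kg doxycycline for 12 h, 24 h, 72 h or 7 d, with 3 mice at each time. That dose is the one in the labels and the methods, while the study's animal table lists a higher one. The 3 control mice carried MHCrtTA alone and had been fed the same dose for 72 h. The transactivator is driven by a cardiac myosin heavy chain promoter, active in cardiomyocytes, while the RNA came from whole ventricle with all its cell types. All groups therefore shared MHCrtTA and doxycycline, and all 4 time points were set against the same 3 control hearts. Control mice had doxycycline for as long as the 72 h mice only, so at the other times the duration of feeding and CELF2 cannot be told apart.

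Celf2 mRNA was 8.54, 11.27 and 9.64 RPKM in the control hearts. It was 192.22, 92.54 and 84.48 RPKM at 12 h, 173.0, 164.67 and 111.86 RPKM at 24 h, 260.7, 216.72 and 213.42 RPKM at 72 h, and 358.96, 352.99 and 261.24 RPKM at 7 d. Every induced heart thus lay above every control heart. Counting used the mouse gene, which leaves the human transgene and endogenous Celf2 unseparated. The 6 ventricular cardiomyocyte markers examined were all present, with a summed level of 33586 to 42402 RPKM over the 15 hearts. Of 5 liver markers, Alb was listed at 0 in every heart except 1 heart at 24 h, while Serpina1a was 1.79 to 4.21 RPKM. The summed level of the 5 liver markers was 1.99 to 4.65 RPKM over the 15 hearts. A code in the sample titles, of unstated meaning, divides the hearts into sets that are called runs A, B and C here. The labels do not say that these sets were sequencing runs or batches of any other kind. Control, 12 h and 24 h hearts fell in runs A (1 each) and B (2 each), and the 7 d hearts in runs A (1) and C (2), as did those at 72 h (2 in A and 1 in C). Y-linked mRNAs were found in 1 control heart, in 0 hearts at 12 h, in 2 at 24 h and in all 3 hearts both at 72 h and at 7 d. The table gives neither counts nor library totals, so depth is unknown and precision is given by the spread between hearts.

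Glutathione is a small peptide that cells use to neutralise oxidants and reactive chemicals. Glutathione transferases attach it to electrophiles such as the aldehydes formed by lipid peroxidation, and are grouped into alpha (Gsta), mu (Gstm), pi (Gstp) and theta (Gstt) classes. Glyoxalase 1 (Glo1) and glyoxalase 2 (Hagh) act in sequence to remove methylglyoxal, a by-product of glycolysis, with glutathione as cofactor. Many enzymes of this kind are controlled by NRF2 (Nfe2l2), a transcription factor that binds antioxidant response elements, and the heart, with its high oxidative metabolism, expresses many of them.

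The textbook core of antioxidant response elements is TGACNNNGC, and the sequences that match it near the genes' starts are shown so that members can be compared. Both strands were searched from 1000 bases before to 50 bases after each annotated start in mm9. The core was found at 4 of the 10 genes, compared with 31.3% of the 22367 promoters of protein-coding genes, so its frequency among the 10 was not far from that of promoters in general. Gsta3 had 3 matches and Gstt1, Hagh and Glo1 had 1 each, while Gsta4, Gstm1, Gstm2, Nqo1, Hmox1 and Gclc had none in this window. The matches are printed 5′ to 3′ on the strand of the gene, with the core in capitals, or its reverse complement where the match lay on the other strand.
Gsta3, first core base at -952, other strand, chr1:21229708-21229736: atctaggacaGCCATGTCAatgtgaagtt
Gsta3, first core base at -553, chr1:21230107-21230135: gaacttaggtTGACCTTGCcagcaagttg
Gsta3, first core base at -125, chr1:21230535-21230563: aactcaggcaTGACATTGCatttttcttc
Gstt1, first core base at -384, chr10:75261695-75261723: ccttgtcaaaTGACAGAGCtgagatgcga
Hagh, first core base at -912, chr17:24976166-24976194: tcagcagtcaTGACATTGCggtaggagga
Glo1, first core base at -525, other strand, chr17:30750111-30750139: tgtgtatactGCATAGTCAaaccacagtt
Such a match is a description of the sequence and no evidence of binding. The lack of a match does not show that a gene lacks such an element. Elements that depart from this core, or lie outside the window, were not searched for. CELF proteins are known to bind GU-rich words in 3′ untranslated regions, and 1 such word, TGTTTG in the DNA sequence, was present in 42.7% of 19915 annotated 3′ untranslated regions. Among the 10 genes, Gclc alone had it, at base 1192 of a region of 1234 bases: aagaataaaaTGTTTGtggtctgaga. The regions of the other genes were 158 to 1272 bases long, against a median of 893 bases over all regions searched. Other words that CELF proteins bind were not searched for, so genes without TGTTTG are not shown to lack CELF sites.

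In control hearts the mu-class transferases were the most abundant of the 10 mRNAs. Gstm1 averaged 217 ± 9.11 RPKM (SD, n = 3) and ranked 314 of 16199 genes, followed by Gstm2 at 114 ± 7.93 RPKM and Gsta4 at 68.5 ± 4.43 RPKM. Glo1 at 49.1 ± 2.17 RPKM and Hagh at 46.4 ± 2.96 RPKM overlapped between hearts. Nqo1 averaged 36.2 ± 3.60 RPKM, below both. Gstt1 at 11.9 ± 1.08 RPKM and Gsta3 at 10.7 ± 1.14 RPKM overlapped with each other. Hmox1 at 8.27 ± 0.860 RPKM and Gclc at 5.90 ± 0.502 RPKM were lowest, and their hearts did not overlap.

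**Figure D1:**
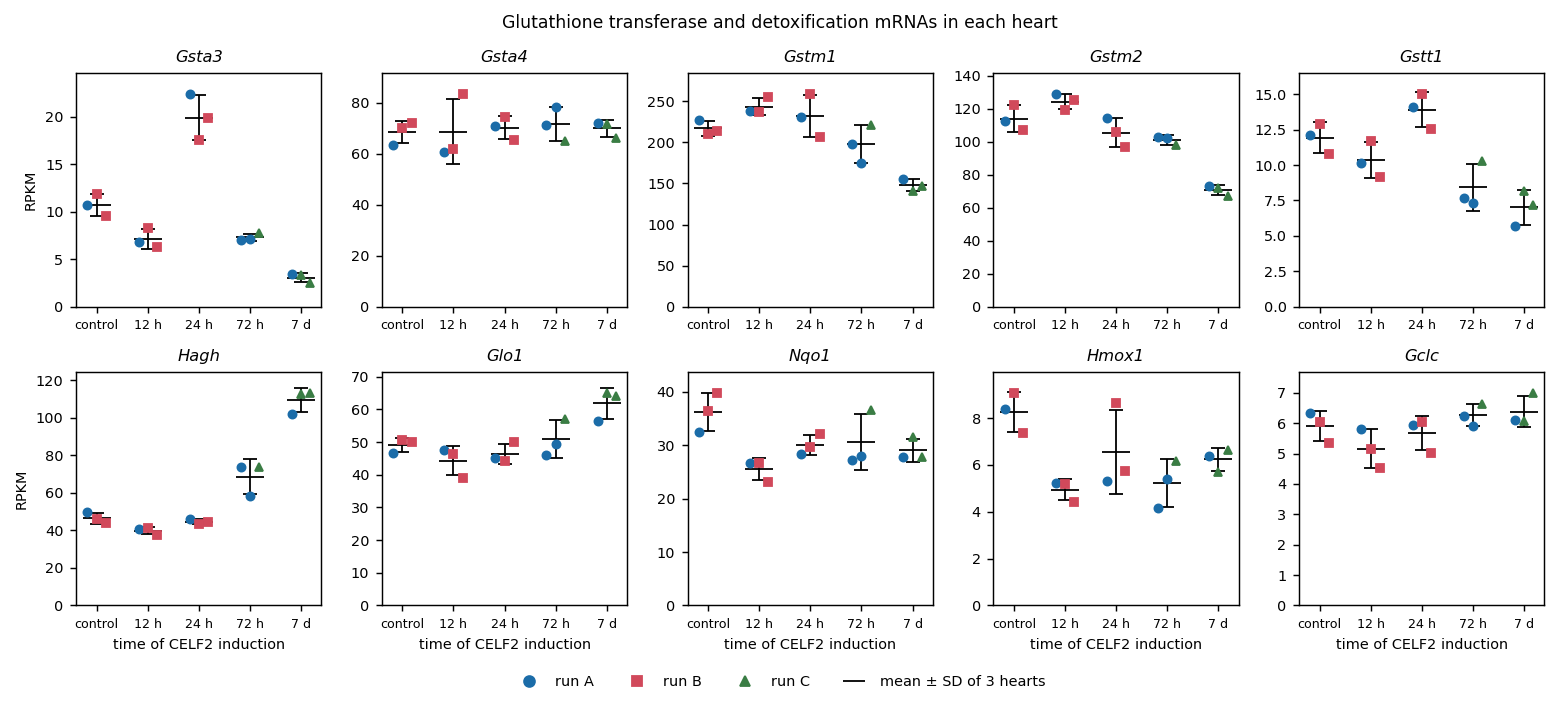
RPKM of the 10 genes (vertical axes, linear and starting at 0) in each of the 15 hearts, by group (horizontal axes), with the run of each heart as the symbol and the mean and SD of 3 hearts as a line with bars. Gsta3 is highest at 24 h and lowest at 7 d, Gstm1 and Gstm2 are lowest at 7 d, Hagh is highest at 7 d, and Gsta4 and Gclc stay in overlapping ranges against control.

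Gsta3 encodes an alpha-class transferase that also acts in steroid isomerisation, and lies on chr1:21230670-21255442 of mm9 on the plus strand. Its level was 10.73, 11.85 and 9.57 RPKM in control hearts, 6.83, 8.29 and 6.33 RPKM at 12 h, and 22.36, 17.57 and 19.83 RPKM at 24 h. It was 7.04, 7.17 and 7.73 RPKM at 72 h and 3.41, 3.35 and 2.48 RPKM at 7 d. The course was not monotonic, since all hearts at 12 h, 72 h and 7 d were below all controls and all hearts at 24 h were above them. On the log2(RPKM + 0.5) scale used for every difference below, Gsta3 differed from control by -0.56 after 12 h and 0.86 after 24 h, then by -0.52 after 72 h and -1.65 after 7 d, each with a standard error of 0.14. With the run and Y-linked mRNA as terms in the fit, the difference at 72 h shrank to -0.21. The mean at 24 h was 2.79 times that at 12 h and the mean at 7 d was 0.287 times that of control. All 3 hearts at 7 d were also below all hearts at 72 h, by -1.14 ± 0.14 (SE). Within run A, with 1 heart per group, the 7 d heart differed from the control heart by -1.52.

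Gsta4 is the alpha-class transferase known for conjugating 4-hydroxynonenal, a toxic product of lipid peroxidation, and lies on chr9:78039773-78057155 on the plus strand. Unlike Gsta3, it showed no separation between induced and control hearts at any time. Its level was 63.52, 70.11 and 71.95 RPKM in control hearts and 71.94, 71.81 and 66.05 RPKM at 7 d, and it ranged from 60.83 to 83.26 RPKM over the hearts at 12 h. Its difference from control was 0.03 ± 0.12 (SE) at 7 d, and its sign depended on the scaling between hearts.

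Gstm1 and Gstm2 encode mu-class transferases, major conjugating enzymes of many tissues, and lie close together on chromosome 3, at chr3:107815173-107820891 and chr3:107784620-107789371, both on the minus strand. Gstm1 was 227.37, 210.07 and 213.75 RPKM in control hearts and 237.57, 237.2 and 255.36 RPKM at 12 h. It was 230.16, 258.09 and 206.75 RPKM at 24 h, 197.67, 174.64 and 220.55 RPKM at 72 h, and 155.33, 141.19 and 146.8 RPKM at 7 d. All 12 h hearts were thus slightly above the controls and all 7 d hearts below them, while 24 h and 72 h overlapped with control. Gstm2 was 112.77, 122.49 and 106.78 RPKM in control hearts, 128.6, 119.21 and 125.08 RPKM at 12 h, and 114.21, 105.77 and 96.61 RPKM at 24 h. It was 102.87, 102.31 and 97.73 RPKM at 72 h and 73.34, 71.77 and 67.19 RPKM at 7 d. For both genes every 7 d heart lay below every heart of the other 4 groups.

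At 7 d the difference from control was -0.55 ± 0.10 (SE) for Gstm1 and -0.68 ± 0.09 (SE) for Gstm2. These 2 levels carry a limit of their own. Only uniquely mapping reads were counted, and 46.5% of the 36-base stretches in the coding sequence of Gstm1 and 40.5% of those of Gstm2 occur more than once in mm9, and stretches of these 2 genes also occur in transcripts of Gstm3, Gstm4, Gstm6 or pseudogenes. How reads were split among these copies is not known from the table, so the levels of Gstm1 and Gstm2 relative to each other and to other genes are uncertain.

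Gstt1, a theta-class transferase that acts on small halogenated compounds, lies on chr10:75246558-75261329 on the minus strand. It was 12.14, 12.89 and 10.77 RPKM in control hearts, 10.14, 11.68 and 9.18 RPKM at 12 h, and 14.13, 14.98 and 12.55 RPKM at 24 h. It was 7.66, 7.31 and 10.32 RPKM at 72 h and 5.72, 8.16 and 7.19 RPKM at 7 d. The hearts at 72 h and 7 d were all below the controls, by -0.49 ± 0.15 (SE) and -0.73 ± 0.15 (SE), and overlapped with each other. Every 24 h heart was above every 12 h heart, as for Gsta3, although Gstt1 at 24 h overlapped with control.

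Hagh, on chr17:24977088-25001395 on the plus strand, lay above control at 72 h and 7 d, where Gsta3 and Gstt1 lay below it. It was 49.55, 46.02 and 43.68 RPKM in control hearts, 40.69, 41.09 and 37.69 RPKM at 12 h, and 45.92, 43.59 and 44.29 RPKM at 24 h. It was 73.76, 58.08 and 74.01 RPKM at 72 h and 102.16, 112.84 and 113.11 RPKM at 7 d. Every 72 h heart was above every control, 12 h and 24 h heart, and every 7 d heart was above every 72 h heart. The difference from control was -0.22 ± 0.10 (SE) at 12 h, 0.55 ± 0.10 (SE) at 72 h and 1.23 ± 0.10 (SE) at 7 d, and the mean at 7 d was 2.36 times that of control. Within run A the 7 d heart was 2.06 times the control heart.

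Glo1, the first enzyme of the same pathway, lies on the same chromosome at chr17:30729811-30749604 on the minus strand and differed less. It was 46.61, 50.64 and 50.02 RPKM in control hearts and 56.46, 65.01 and 64.12 RPKM at 7 d, without overlap. Its ranges of 39.17 to 47.56 RPKM at 12 h, 44.09 to 50.02 RPKM at 24 h and 45.99 to 57.23 RPKM at 72 h overlapped with control. The difference at 7 d was 0.33 ± 0.11 (SE), and became 0.18 with the run as a term in the fit and 0.10 with both the run and Y-linked mRNA. Of the 36-base stretches in its coding sequence, 57.1% occur more than once in mm9, so its absolute level is uncertain as well.

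The remaining 3 genes are classical NRF2 targets. Nqo1, a quinone reductase on chr8:109912125-109927106 on the minus strand, was 32.55, 36.32 and 39.74 RPKM in control hearts. It was 26.73, 26.64 and 23.18 RPKM at 12 h, 28.37, 29.74 and 32.02 RPKM at 24 h, 27.18, 28.05 and 36.62 RPKM at 72 h, and 27.84, 31.58 and 27.73 RPKM at 7 d. The groups at 12 h, 24 h and 7 d lay below control, and the lowest hearts were those at 12 h, where the difference was -0.49 ± 0.12 (SE). At 7 d it was -0.31 ± 0.12 (SE), and -0.61 with the run and Y-linked mRNA as terms in the fit. At 72 h those terms took it from -0.25 to -0.45.

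Hmox1, the inducible haem oxygenase, lies on chr8:77617490-77624495 on the plus strand. It was 8.37, 9.07 and 7.36 RPKM in control hearts, 5.21, 5.18 and 4.42 RPKM at 12 h, and 5.32, 8.63 and 5.73 RPKM at 24 h. It was 4.15, 5.38 and 6.17 RPKM at 72 h and 6.38, 5.7 and 6.64 RPKM at 7 d. The hearts at 12 h, 72 h and 7 d were all below the controls, and 1 of the 3 hearts at 24 h lay within the control range. The differences were -0.69 at 12 h, -0.62 at 72 h and -0.38 at 7 d, each with a standard error of 0.17. Macrophages are known to express this gene strongly. The summed level of 7 macrophage markers was 80.76 to 91.75 RPKM in control hearts, 60.83 to 90.2 RPKM at 12 h, 66.84 to 73.75 RPKM at 24 h, 53.8 to 76.61 RPKM at 72 h and 58.91 to 79.06 RPKM at 7 d, with no marker at 0 throughout a group. Most of this sum was C1qa, C1qb and C1qc. At 7 d C1qb was below all controls (14.8 to 19.88 against 22.28 to 24.82 RPKM), and none of the other markers was. Csf1r, for example, was 7.06 to 7.56 RPKM in control hearts and 6.68 to 8.66 RPKM at 7 d. The part of macrophages in the result was not tested, and in bulk tissue fewer cells of a type cannot be told apart from less RNA per cell.

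Gclc, the catalytic subunit of the enzyme that limits glutathione synthesis, lies on chr9:77602342-77642292 on the plus strand. It was 6.33, 6.03 and 5.35 RPKM in control hearts and 6.09, 6.07 and 6.99 RPKM at 7 d, and over all induced hearts it ranged from 4.51 to 6.99 RPKM. It overlapped with control at all 4 times, with a difference of 0.10 ± 0.12 (SE) at 7 d.

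Counted together, 1 member lay above and 4 lay below all controls at 12 h, where 3.31% of the 10557 genes averaging 1 RPKM or more lay above and 13.2% below. At 24 h 1 member lay above and 1 below, against 2.77% and 14.5% of all genes. At 72 h the counts were 1 above and 4 below, against 7.35% and 10.8%. At 7 d 2 members lay above and 6 below, against 18.3% and 13.4%. At 24 h against 12 h, 5 members lay above (Gsta3, Gstt1, Hagh, Nqo1 and Hmox1) and 1 below (Gstm2), against 4.11% and 4.69%. Since the members were selected on these same hearts, nothing is read from these shares. In time order, the median difference of the 10 genes from control was -0.19, -0.05, -0.16 and -0.34, beside -0.10, -0.10, -0.08 and 0.03 for all genes. Rescaling the hearts by median ratios brought the median of all genes to 0.00 at 24 h, and under that scaling the small negative differences of Hagh, Glo1 and Gclc at 24 h became positive.

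**Figure D2:**
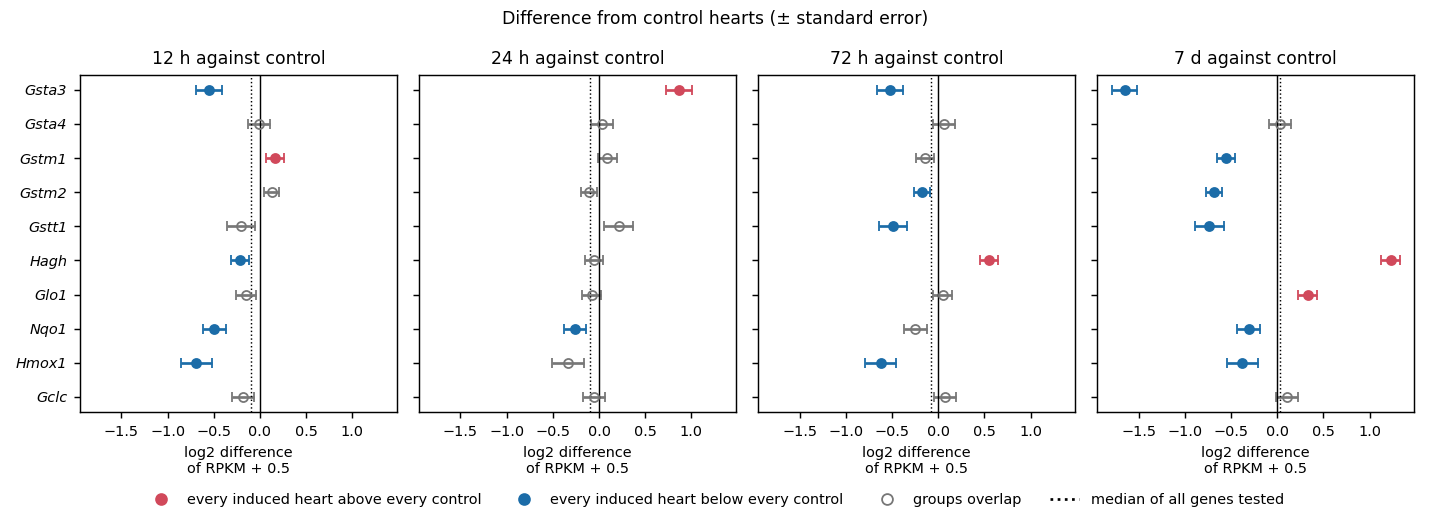
Difference of the 10 genes from the 3 control hearts on the log2(RPKM + 0.5) scale (horizontal axes) at 12 h, 24 h, 72 h and 7 d, with standard errors as bars and filled symbols where the 2 groups did not overlap. Gsta3 lies at 0.86 at 24 h and at -1.65 at 7 d, and Hagh at 1.23 at 7 d, while the dotted line, the median of all genes tested, stays between -0.10 and 0.03.

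The members were also set against Y-linked mRNA and clock genes, which differed between the groups. The control heart with Y-linked mRNA, the third in the values above, had 9.57 RPKM of Gsta3, 213.75 RPKM of Gstm1, 106.78 RPKM of Gstm2, 10.77 RPKM of Gstt1 and 43.68 RPKM of Hagh. None of these 5 genes overlapped between 7 d and control. The 7 d hearts, all with Y-linked mRNA, therefore had to lie on the same side of this heart as of the other controls. That comparison rests on 1 heart and is no separate check. With Y-linked mRNA and the run as terms in the fit, the differences at 7 d were -1.32 for Gsta3, -0.61 for Gstm1, -0.51 for Gstm2, -0.83 for Gstt1 and 1.12 for Hagh. Between 72 h and 7 d, where all 6 hearts had Y-linked mRNA, 1 gene was higher in every 7 d heart (Hagh) and 3 were lower (Gsta3, Gstm1 and Gstm2), against 14.4% and 6.1% of all genes.

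Circadian clock genes did not match between control and all times. Arntl was 0.83, 0.53 and 0.51 RPKM in control hearts, 7.18, 6.41 and 5.77 RPKM at 12 h and 4.54, 5.02 and 5.7 RPKM at 7 d, and it was at most 1.5 RPKM at 24 h and 72 h. Dbp, a clock output factor, was 78.92, 102.91 and 104.35 RPKM in control hearts, 10.54, 18.55 and 38.74 RPKM at 12 h, and 28.79, 30.69 and 31.41 RPKM at 7 d. The sources used here do not state the time of day at which hearts were taken. The part of the clock in the differences of the members was not tested. The 12 h hearts were used as a further reference because their Arntl and Dbp levels were nearer to those at 7 d than control was. They were not matched for the clock, since 8 of 14 clock genes, Arntl among them, separated the 7 d from the 12 h hearts. Hlf, for example, was 4.96 to 6.86 RPKM at 12 h and 10.53 to 13.22 RPKM at 7 d, where it overlapped with the control range of 10.9 to 14.19 RPKM. Against 12 h, the 7 d hearts were all lower for Gsta3 (-1.10 ± 0.14, SE), Gstm1 (-0.72 ± 0.10, SE), Gstm2 (-0.81 ± 0.09, SE) and Gstt1 (-0.53 ± 0.15, SE). They were all higher for Hagh (1.45 ± 0.10, SE), Glo1 (0.48 ± 0.11, SE), Hmox1 (0.31 ± 0.17, SE), Gclc (0.29 ± 0.12, SE) and Nqo1 (0.18 ± 0.12, SE), and Gsta4 overlapped. With the run and Y-linked mRNA as terms, the difference of Nqo1 turned to -0.16, and those of Glo1, Gclc and Gsta3 became 0.22, 0.16 and -0.66, while with the run alone that of Gclc was 0.11. Of all genes, 8.07% lay lower and 22.3% higher without overlap in this comparison. For Nqo1 and Hmox1 the 7 d hearts thus lay between the 12 h and control hearts. Y-linked mRNA, present at 7 d and absent at 12 h, cannot be told apart from time in this comparison.

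The rest of the detoxification system was followed in 4 lists of 104 genes, of which 103 were in the table and 90 averaged 1 RPKM or more. They held the other glutathione transferases, glutathione synthesis and peroxidases, NRF2 with its textbook targets, and aldehyde and xenobiotic metabolism. These genes were tested with limma over all 10557 genes with Benjamini-Hochberg adjustment, and those with an adjusted p under 0.05 were called. The lists were chosen with earlier results of these data known. Their counts of called genes, set beside the shares of all genes here and below, are therefore a description and no independent support. At 12 h 0 genes were called higher and 2 lower, Ephx1 and Adh1, while 0.388% of all genes were called. This count ranged from 0 to 7 when single hearts were left out, with 7 called without the first 12 h heart, where 180 of all genes were called. The call of Ephx1 was lost without control heart 2 or 3 or without 12 h heart 2 (numbered in the order of the values), and that of Adh1 without any single heart other than the first 12 h heart. With the run as a term in the fit, 22 genes of the lists were called at 12 h, all lower, and 772 of all genes in place of 41. At 24 h and at 72 h limma called 0 of the 90, while 0.0947% and 0.597% of all genes were called. With the run as a term these became 4 at 24 h (2 higher and 2 lower) and 7 at 72 h, all lower. The same setting called 326 of all genes at 24 h and 495 at 72 h, in place of 10 and 63. At 72 h leaving out the third heart gave 6 calls, all lower, while 269 of all genes were called.

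At 7 d limma called 1 of the 90 genes higher and 13 lower, where 5.83% of all genes were called higher and 4.16% lower. The median difference over the 90 genes was -0.13, beside 0.03 for all genes tested. Leaving out any single heart of either group other than the first control heart left 8 or 9 calls, and leaving out that one left 12. Of all genes, 529 to 756 were called when single hearts were left out, in place of 1055. With the run and Y-linked mRNA as terms 5 calls were left, and 163 of all genes. Of 6 adipocyte markers, Cfd (5.73 to 8.05 RPKM in control hearts and 2.07 to 3.38 RPKM at 7 d), Car3 (4.78 to 8.79 and 3.09 to 3.71 RPKM) and Plin1 (0.67 to 1.15 and 0.41 to 0.59 RPKM) were also below control in every 7 d heart. Adipoq, Retn and Fabp4 overlapped with control at 7 d. Cfd (1.31 to 3.06 RPKM), Car3 (2.16 to 4.13 RPKM) and Plin1 (0.15 to 0.6 RPKM) were already below control in every 72 h heart. The summed level of the 6 was 846.25 to 924.0 RPKM in control hearts and 765.79 to 847.08 RPKM at 7 d. Most of it was Fabp4 (834.13 to 904.05 and 757.86 to 838.61 RPKM), so the sum shows little of the other markers. The part of adipocytes in the lower levels of the listed genes and of the members was not tested. Adh1, Ephx1, Me1, Mgst1 and Pgd were called under all 16 alternative settings. The calls of Gstm3 and Blvrb were lost when any 1 heart was left out, those of Gstt2, Fmo5 and Sult1a1 when any heart but the first control was, and that of Aldh9a1 when any heart but the first 7 d heart was.

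Among the 14 other transferases tested, 0 were called higher and 3 lower at 7 d. Transferases of the list averaging under 1 RPKM were not tested. Among these, Gsto2 was 0.97 to 1.08 RPKM in control hearts and 0.13 to 0.26 RPKM at 7 d. Gsta2 was also lower in every 7 d heart than in every control heart, and the rest overlapped. Mgst1, a microsomal transferase that also reduces lipid peroxides, was 20.23, 22.09 and 24.62 RPKM in control hearts and 11.1, 10.47 and 11.18 RPKM at 7 d (log2 difference -0.99 ± 0.13, SE, adjusted p = 0.000367 by limma). Gstt2, a second theta-class enzyme, differed by -0.82 ± 0.22 (SE, adjusted p = 0.0293 by limma), and Gstm3 by -0.49 ± 0.14 (SE, adjusted p = 0.0467 by limma). Gstm3 shares sequence with Gstm1 and Gstm2 and its level is uncertain in the same way. The 4 most abundant transferases outside the 10 members did not pass the test, with differences of 0.20 ± 0.13 (SE) for Mgst3, 0.01 ± 0.12 (SE) for Gstp1, 0.05 ± 0.15 (SE) for Gstp2 and 0.27 ± 0.09 (SE) for Gsto1. For Mgst3 and Gsto1 every 7 d heart was nevertheless above every control heart. Over 25 transferase genes the summed level averaged 1418 ± 48.9 RPKM over the control hearts and 1309 ± 28.7 RPKM over the 7 d hearts (SD, n = 3 each). Within this sum Gstm1 made up 15.3 ± 0.199% (SD, n = 3) in control hearts and 11.3 ± 0.621% at 7 d, Gstm2 8.05 ± 0.646% and 5.41 ± 0.152%, and Mgst3 21.1 ± 0.791% and 26.2 ± 0.560%. Gsta3 made up 0.756 ± 0.0840% in control hearts, 1.36 ± 0.221% at 24 h and 0.235 ± 0.0353% at 7 d. The sum and these shares carry the mapping limit given above for Gstm1 and Gstm2. Repeated stretches were not searched for genes outside the 10 members, Gstp1 and Gstp2 among them.

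Of 19 genes of glutathione synthesis, turnover and peroxidases, 0 were called higher and 1 lower at 7 d. This was Slc3a2, the shared heavy chain of amino acid exchangers including the cystine importer, which differed by -0.79 ± 0.15 (SE, adjusted p = 0.00508 by limma). Gclm, the regulatory subunit that partners Gclc, was 10.13, 9.89 and 9.21 RPKM in control hearts and 7.22, 6.15 and 8.49 RPKM at 7 d, a difference that did not pass the test (adjusted p = 0.0984 by limma). Glrx, Gss and Gpx8 did not pass it either, although every 7 d heart was above every control heart. Their differences were 0.52 ± 0.20 (SE, adjusted p = 0.112 by limma) for the glutaredoxin Glrx, 0.32 ± 0.11 (SE, adjusted p = 0.0982 by limma) for glutathione synthetase (Gss) and 0.40 ± 0.13 (SE, adjusted p = 0.0774 by limma) for the peroxidase Gpx8.

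Of 32 genes of the NRF2 list, 0 were called higher and 4 lower at 7 d. Ephx1, microsomal epoxide hydrolase, was 27.99, 34.23 and 33.09 RPKM in control hearts and 13.78, 14.82 and 15.47 RPKM at 7 d (-1.08 ± 0.14, SE, adjusted p = 0.000306 by limma). Pgd (-0.86 ± 0.13, SE, adjusted p = 0.00084 by limma) and Me1 (-0.56 ± 0.11, SE, adjusted p = 0.00442 by limma) encode enzymes that generate NADPH. The fourth was Blvrb, a biliverdin and flavin reductase (-0.50 ± 0.15, SE, adjusted p = 0.0456 by limma). Nfe2l2 itself was 37.22, 41.33 and 38.97 RPKM in control hearts and 37.3, 33.32 and 35.41 RPKM at 7 d, and Keap1, its inhibitor, was 16.53, 17.31 and 19.08 RPKM and 16.34, 18.01 and 21.47 RPKM. Neither passed the test at any time, and for both the groups overlapped at 7 d.

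Of 25 genes of aldehyde and xenobiotic metabolism, 1 was called higher and 5 lower at 7 d. Adh1, an alcohol dehydrogenase, was 11.58, 12.69 and 18.73 RPKM in control hearts, 18.75, 31.05 and 24.07 RPKM at 24 h and 5.66, 5.17 and 7.43 RPKM at 7 d (-1.16 ± 0.24 at 7 d, SE, adjusted p = 0.00713 by limma). Cyp2e1, a cytochrome P450 that oxidises ethanol, differed by -1.08 ± 0.22 (SE, adjusted p = 0.00614 by limma) at levels below 3 RPKM. The flavin monooxygenases Fmo2 (-0.98 ± 0.19, SE, adjusted p = 0.00468 by limma) and Fmo5 (-0.39 ± 0.10, SE, adjusted p = 0.0256 by limma) and the sulphotransferase Sult1a1 (-0.65 ± 0.17, SE, adjusted p = 0.026 by limma) also fell. Aldh9a1, an aldehyde dehydrogenase of carnitine synthesis, was the gene that rose (0.62 ± 0.17, SE, adjusted p = 0.034 by limma), and this call was lost in 8 of 16 alternative settings.

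**Figure D3:**
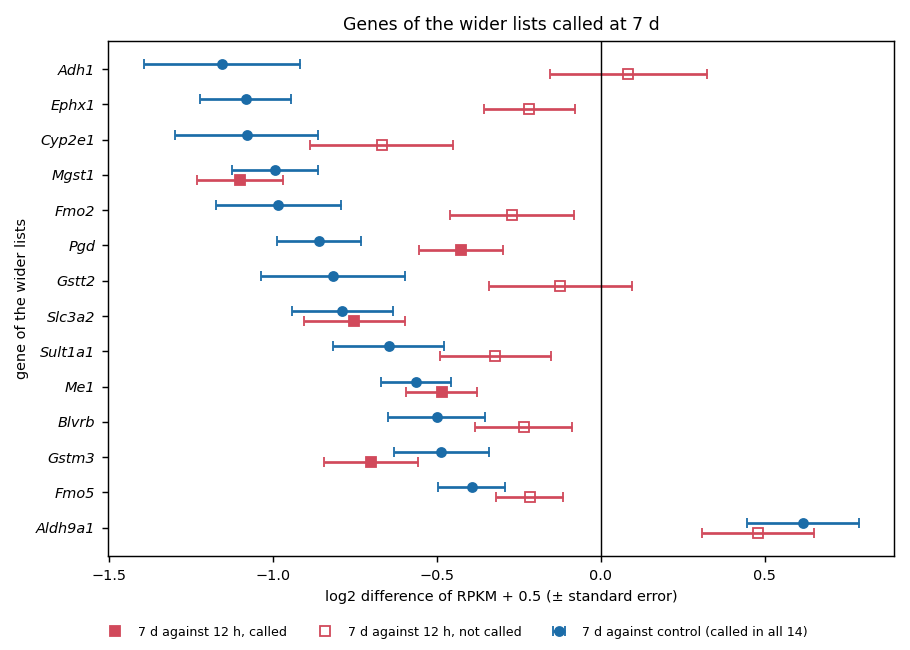
Log2 difference of RPKM + 0.5 with standard errors (horizontal axis) for the 14 genes of the 4 wider lists called at 7 d against control (circles), beside the same genes at 7 d against 12 h (squares, filled where called). Against control 13 genes lie below 0 and Aldh9a1 above, and against 12 h the difference of Adh1 is 0.08.

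The wider lists were set against 12 h as well. Of the 13 genes lower at 7 d than in control hearts, 7 were also lower in every 12 h heart than in every control heart. When 7 d was compared with 12 h, 5 of the 13 (Mgst1, Gstm3, Slc3a2, Pgd and Me1) were called lower, 12 had a negative difference and Adh1 had a positive one. The 13 genes were picked on the same 7 d and control hearts, so these counts were likely to lean lower and are no separate support. No share of all genes picked in the same way was worked out. Ephx1 and Adh1 were the genes called at 12 h as well, with 14.66, 17.12 and 20.06 RPKM of Ephx1 (-0.87 ± 0.14, SE, adjusted p = 0.0123 by limma) and 5.44, 5.77 and 5.74 RPKM of Adh1 (-1.24 ± 0.24, SE, adjusted p = 0.0377 by limma). At 7 d against 12 h Ephx1 differed by -0.22 ± 0.14 (SE, adjusted p = 0.305 by limma) and Adh1 by 0.08 ± 0.24 (SE, adjusted p = 0.846 by limma).

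Over all 90 genes, 9 were called higher and 6 lower at 7 d against 12 h, where 11.8% of all genes were called higher and 3.88% lower. This split followed the scaling, since median-ratio scaling gave 4 higher and 12 lower. The median of all genes in this comparison was 0.13 and became 0.01 under that scaling. Gpx1, the main cytosolic glutathione peroxidase, was singled out after its values were seen, because it was higher under every setting tried. It was 62.43, 72.94 and 70.63 RPKM at 12 h and 95.24, 120.33 and 110.28 RPKM at 7 d (0.65 ± 0.10, SE, adjusted p = 0.000758 by limma), while its control level of 89.24, 100.14 and 88.79 RPKM lay above the 12 h hearts and overlapped with those at 7 d.

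**Figure D4:**
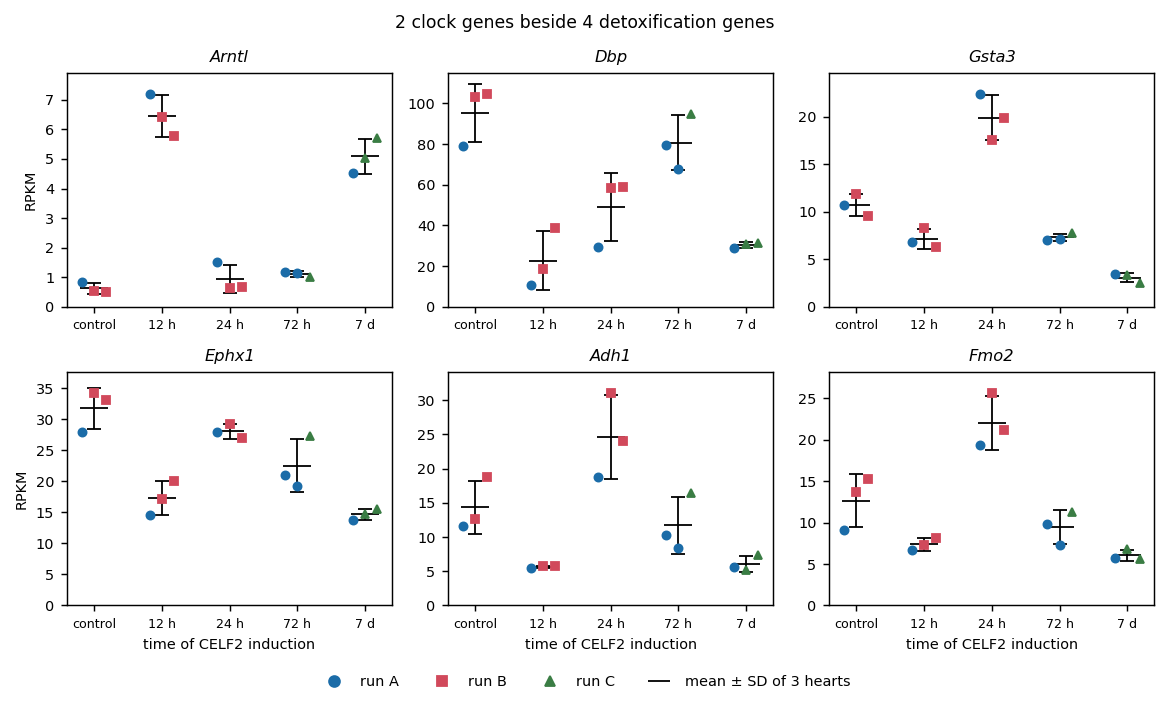
RPKM (vertical axes, linear and starting at 0) of the clock genes Arntl and Dbp, of Gsta3 and of Ephx1, Adh1 and Fmo2 in each heart by group, with the run as the symbol and the mean and SD of 3 hearts. Arntl is high at 12 h and 7 d, Ephx1, Adh1 and Fmo2 are below control in both of these groups, and Gsta3 and Fmo2 are highest at 24 h.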

How the data were processed

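Ventricular poly(A)+ RNA of 15 mice (5 groups of 3) was sequenced by the authors as read pairs. The deposited values are RPKM, which the authors computed from uniquely mapping reads over constitutive coding sequence of RefSeq genes, scaled to nonribosomal and nonmitochondrial reads. Mapping used Bowtie and TopHat on mm9, according to the submitters' processing notes, with versions not given in the sources used here. Values have 2 decimals and no counts were used, so depth per heart is unknown and intervals from counting could not be given.

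Titles, genotypes and times in the labels gave the groups. A Celf1 cassette that the labels add for induced hearts, against the titles and the methods, was not used. limma (version 3.58.1, R 4.3.3) with a mean-variance trend was fitted to log2(RPKM + 0.5) for the 10557 genes averaging 1 RPKM or more, with all 5 groups in a single fit, and a gene was called at an adjusted p (Benjamini-Hochberg) under 0.05. The pseudocount of 0.5 understates changes of low genes. Standard errors of the members come from the same fit. The fit was tested on simulated data for 7 d against control, without differences between runs. It found 48.0% of 1.5-fold, 88.0% of 2-fold, 98.0% of 4-fold and 92.0% of 0.5-fold changes (50 genes each), and 6.32% of 174 calls were false. A gene that differed by 1.5-fold could therefore go uncalled. Tables and plots were made with Python 3.11.15, pandas 2.3.3, numpy 2.4.6 and matplotlib 3.10.9.

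The members and the lists were chosen with earlier results of these data known. All 10 members are given in every group. From the 4 wider lists, genes called against control are named, up to 15 with the smallest adjusted p per comparison. Other genes of these lists named in the text, namely Mgst3, Gstp1, Gstp2, Gsto1, Gclm, Glrx, Gss, Gpx8, Nfe2l2, Keap1 and Gpx1, were chosen after their values were seen. The comparison of 7 d with 12 h and its alternatives were added after the clock genes had been seen. Alternatives were pseudocounts of 0.1 and 1, dropping the filter or raising it to 5 RPKM, median-ratio and upper-quartile scaling, the run and Y-linked mRNA as covariates, a fit of the compared groups alone, and leaving out each heart. Gene positions, promoters and 3′ untranslated regions come from the mm9 annotation (GENCODE M1). Repeated stretches were found by searching mm9 for every 36-base window of each member's coding sequence.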

Additional observations from a re-analysis of the deposited data

How the results depend on the processing

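No paired analysis was possible because each heart came from a different animal and the labels carry no replicate numbers that link the groups. Of 800 member differences recomputed, 761 stayed within 1 SD and 39 moved. Gsta3, Gstm1, Gstm2, Gstt1, Hagh, Glo1, Nqo1 and Hmox1 kept their sign at 7 d against control under all 16 alternatives, within -1.77 to -1.32 for Gsta3 and 1.06 to 1.31 for Hagh, while Gsta4 changed sign under 3 and Gclc under 2. Calls on the wider lists were kept in 352 cases and lost in 141, none with the opposite sign. The cause of the moves below was not tested. For all genes tested, the numbers called at 12 h, 24 h, 72 h and 7 d were 41, 10, 63 and 1055. With a minimum of 5 RPKM these became 23, 6 and 40 at 12 h, 24 h and 72 h, and with no filter 16 at 24 h. With the run as a covariate they became 772, 326 and 495, with Y-linked mRNA 20, 1, 6 and 415, with both 454, 185, 1 and 163, and with the compared groups alone 11, 47 and 1 at 12 h, 24 h and 72 h. Without single hearts they ranged from 9 to 180 at 12 h (180 without the first 12 h heart), were 1 at 24 h, ranged from 4 to 269 at 72 h (269 without the third 72 h heart) and from 529 to 756 at 7 d (529 without the second 7 d heart). Scaling moved the split into higher and lower from 11 and 30 to 22 and 33 at 12 h, from 4 and 6 to 6 and 4 at 24 h, and from 25 and 38 to 50 and 35 at 72 h (median ratios), and from 616 and 439 to 607 and 669 at 7 d (upper quartiles). On the wider lists the 2 calls at 12 h became 1 with no filter, 22 with the run, 1 with Y-linked mRNA, 17 with both, 0 with the compared groups alone, and 0 to 7 without single hearts. The 0 calls at 24 h became 4 with the run and 2 with both covariates. The 0 calls at 72 h became 1 with no filter, 2 with either scaling, 7 with the run, and 0 to 6 without single hearts. The 14 calls at 7 d became 5 with both covariates and 8 to 12 without single hearts. The 15 calls at 7 d against 12 h became 4 with Y-linked mRNA, 2 with both, 8 with the compared groups alone, and 9 to 17 without single hearts. Depth is unknown, and low genes such as Gclc, Hmox1 and Cyp2e1 rest on the spread between 3 hearts.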
